A study of Mus musculus with 10 samples.

Results

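Messenger RNA of 43 lysosome and autophagy genes was followed in primary LECs of the mouse, the endothelial cells of lymphatic vessels, after knockdown of the VEGF receptor VEGFR2. The genes were named by symbol, with no threshold on a measured value, as lysosomal hydrolases, membrane proteins, proton pump subunits and autophagy factors. All 43 were found among the 16251 genes of the deposited table and all 43 passed the filter on low counts that 12161 genes passed. In 5 libraries the cells had received 50 nM of a small interfering RNA (siRNA) against Vegfr2, and in the other 5, labelled control, the labels carry the same treatment tag but name no control siRNA. RNA was taken 48 h later in the siRNA libraries, and the control titles give the same time. No allele, strain or age is named for these cells, nor whether replicates were separate cultures or animals, so the p-values rest on a spread between libraries that may be only technical. Effects of transfection or of the siRNA on other transcripts and effects of lower VEGFR2 cannot be told apart in this design.

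Lysosomes are acidic compartments in which hydrolases break down proteins, lipids and sugars that arrive by endocytosis or by autophagy. A proton pump, the V-ATPase, keeps them acidic, and transporters in the membrane return the products to the cell. In autophagy a double membrane closes around cell contents and fuses with the lysosome. A cascade of conjugating enzymes acts as that membrane grows, and receptors bring it cargo. TFEB, TFE3 and MITF, transcription factors of the MiT/TFE family, bind an E-box-like element in the promoters of many of these genes, and the kinase complex mTORC1 holds them in the cytoplasm when nutrients are plentiful.

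The target and the cell type were checked first. Kdr, which encodes VEGFR2, stood at 186 ± 14.8 CPM (read counts scaled to one common library size) in siRNA and 1323 ± 66.3 CPM in control libraries (SD, n = 5 each). Library totals ran from 17946483 to 18239260 estimated counts over the 10 libraries. Of 8 markers of lymphatic and general endothelium 6 fell, Pdpn rose and Cdh5 did not pass, and together they held 8951 to 9474 CPM in siRNA and 11722 to 12274 CPM in control libraries. The largest change was that of Flt4, which encodes VEGFR3, at 1424 ± 71.4 CPM in siRNA and 2967 ± 114 CPM in control libraries. Prox1 was at 405 ± 12.2 CPM in siRNA and 487 ± 17.1 CPM in control libraries, and Pdpn at 19.5 ± 1.79 CPM in siRNA and 11.2 ± 1.53 CPM in control libraries. Their part in the results that follow was not tested. Macrophages are rich in lysosomes, and 6 of 12 macrophage markers on the list had a row in the table. Ptprc, Adgre1, Lyz2, Tyrobp, C1qa and C1qb had no row under these symbols, so they could not be analysed. The 6 markers with a row summed to 65.3 to 70.3 CPM in siRNA and 84.0 to 101 CPM in control libraries. Nearly all of it was Cd14, which fell (log2 fold change −0.49). The other 5 markers (Csf1r, Itgam, Fcgr3, Aif1 and Mpeg1) together held 0.548 to 1.65 CPM in siRNA and 1.11 to 1.33 CPM in control libraries. Csf1r, which encodes the defining receptor of macrophages, had 0 counts over the siRNA and 6 over the control libraries. Summed markers of fibroblasts (5 genes) were at 1.04 to 1.59 CPM in siRNA and 0.834 to 1.10 CPM in control libraries, and the 2 epithelial markers with a row summed to 0.0549 to 0.110 CPM in siRNA and 0 to 0.112 CPM in control libraries.

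Most of the 43 genes differed between the groups, by small amounts and in both directions. After the siRNA 14 rose and 23 fell, while 6 did not pass an adjusted p of 0.05 (edgeR quasi-likelihood test, Benjamini-Hochberg over all genes tested). This is 86.0% called, where 71.3% of all tested genes were called, and 75.1% of those with a mean of at least 5 CPM. The genes that rose were 32.6% of the members, against 36.1% of all tested genes, and those that fell were 53.5%, against 35.2%. Their median log2 fold change was −0.15, where the median over all genes tested was −0.0019, and the median size of a change was 0.21 and 0.22. The libraries of the groups did not overlap for 33 of the 43 genes, where this held for 57.0% of all tested genes. A fold of at least 1.5 was reached by 3 of them, Gpnmb and Tfeb included, all lower, where 14.4% of all tested genes passed the test with such a fold. Summed over the 43 genes the level was 11255 ± 254 CPM in siRNA and 12700.0 ± 163 CPM in control libraries (SD, n = 5 each), and the ranges, 10975 to 11590 CPM and 12502 to 12877 CPM, did not overlap. A few abundant genes weigh most in this sum. Psap, Ctsd, Ctsb and Lamp1 held 42.7% of it in siRNA and 46.3% in control libraries. In bulk RNA, fewer cells that express a gene and less of its RNA per cell cannot be told apart.

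**Figure D1:**
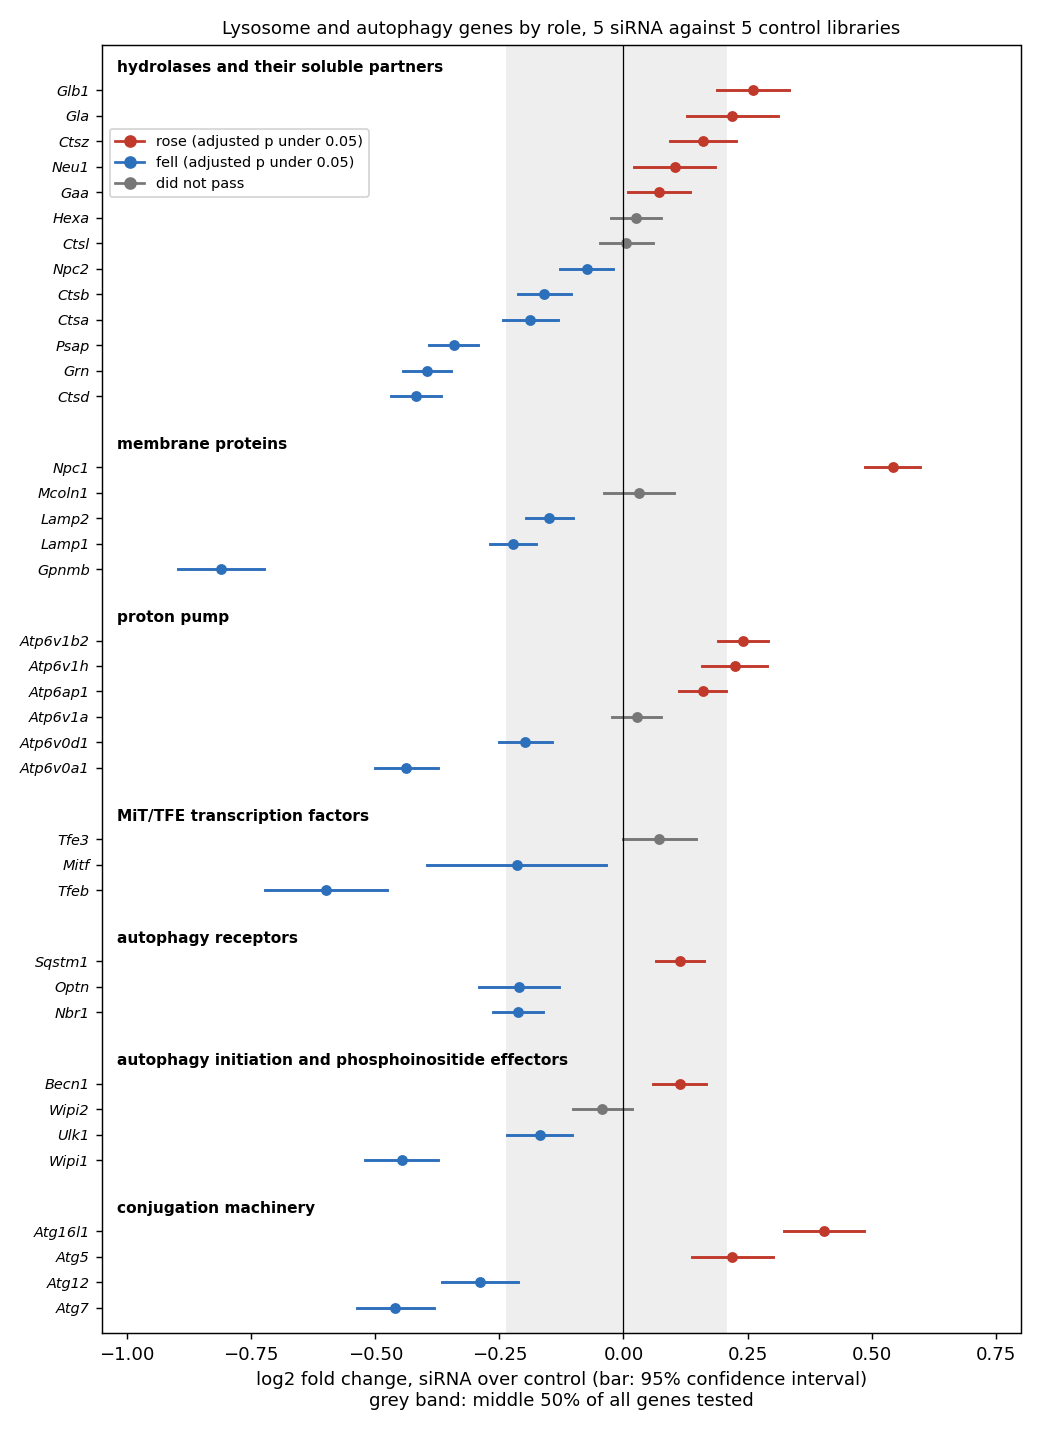
Log2 fold change of each gene described, siRNA over control, with its 95% confidence interval, ordered by role. Blue genes fell and red genes rose past an adjusted p of 0.05, grey genes did not pass, and the grey band holds the middle 50% of all genes tested (−0.23 to 0.21). Most roles hold genes on both sides of 0, and Gpnmb, at −0.81, and Npc1, at 0.54, lie at the ends.

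Of the MiT/TFE factors, Tfeb fell, Mitf fell slightly and Tfe3 did not pass. Tfeb (Entrez gene 21425, chromosome 17, 47737037 to 47792416 in GRCm38.p6), which encodes the main activator of lysosomal genes, was at 17.1, 15.1, 14.1, 15.2 and 12.5 CPM in siRNA replicates 1 to 5, against 21.0, 23.3, 22.0, 23.5 and 22.4 CPM in control replicates 1 to 5. Every siRNA library lay below every control library, with siRNA replicate 5 the lowest. On the log2 scale Tfeb fell by 0.60 (SE 0.061, edgeR adjusted p = 8.72e-12), a change lower than that of all but 8.30% of tested genes. Mitf (Entrez gene 17342, chromosome 6, 97807002 to 98021360), best known from pigment cells and osteoclasts, had the lowest level per exon length of the 43 genes, at 6.35, 5.98, 6.86, 6.75 and 5.23 CPM in siRNA and 6.66, 6.56, 7.50, 7.84 and 7.63 CPM in control libraries. These groups overlapped, since siRNA replicates 3 and 4 were above control replicates 1 and 2. Its log2 fold change of −0.22 (adjusted p = 0.0299) no longer passed with DESeq2 (adjusted p = 0.0869), nor without control replicate 3 (0.0618), 4 (0.087) or 5 (0.0674), or siRNA replicate 2 (0.0598) or 5 (0.121). Tfe3 (Entrez gene 209446, chromosome X, 7762530 to 7775202) was at 52.5, 55.5, 52.0, 55.0 and 53.0 CPM in siRNA and 48.0, 50.9, 51.8, 53.9 and 50.2 CPM in control libraries, with overlapping groups. Its log2 fold change was 0.07 (95% confidence interval −0.0017 to 0.15, adjusted p = 0.075), and it passed without control replicate 4 (0.0957, adjusted p = 0.0242). The fourth member of the family, Tfec, from the further genes described later, was under the filter at 0.0769 ± 0.0627 CPM in siRNA and 0.123 ± 0.0472 CPM in control libraries.

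The promoters of the genes were searched for the word that these factors bind. RefSeq promoters of GRCm38.p6, from 250 bases before to 50 after an annotated start, were at hand for 35 of the 43 genes, some with several starts. The word TCACGTG, read on both strands and part of the CLEAR element known for TFEB, was in 10 of these 35 genes (28.6%), where 4.29% of all 27025 genes with a promoter and 6.98% of the 9763 tested ones held it. Its core CACGTG, which lies inside it, was in 12 of the 35 (34.3%), in 8.09% of all genes and in 11.8% of the tested ones. The M-box core CATGTG, bound by MITF in pigment genes, was in 4 (11.4%), in 15.9% of all genes and in 10.2% of the tested ones. Carriers of TCACGTG moved both ways, as the 5 promoters printed here illustrate. They were picked to show 2 genes that fell (Lamp1, Ctsd), 2 that rose (Gla, Glb1) and 1 that did not pass (Mcoln1). Each is given 5′ to 3′ on the gene's strand, with TCACGTG or its reverse complement in capitals.
Lamp1 (chr8:13158911-13159210, plus strand): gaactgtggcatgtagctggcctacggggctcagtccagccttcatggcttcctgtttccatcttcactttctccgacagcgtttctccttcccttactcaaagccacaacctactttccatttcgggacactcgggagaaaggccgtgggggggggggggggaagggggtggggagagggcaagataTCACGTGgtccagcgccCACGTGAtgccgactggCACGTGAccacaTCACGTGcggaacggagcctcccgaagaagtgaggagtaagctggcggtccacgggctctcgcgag
Ctsd (chr7:142387778-142388077, minus strand): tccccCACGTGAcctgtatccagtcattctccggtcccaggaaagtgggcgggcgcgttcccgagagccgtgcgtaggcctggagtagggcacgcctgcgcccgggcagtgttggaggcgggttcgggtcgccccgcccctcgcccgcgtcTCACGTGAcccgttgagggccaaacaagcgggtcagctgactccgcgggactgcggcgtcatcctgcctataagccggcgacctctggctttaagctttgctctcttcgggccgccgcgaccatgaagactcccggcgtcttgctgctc
Gla (chrX:134600956-134601255, minus strand): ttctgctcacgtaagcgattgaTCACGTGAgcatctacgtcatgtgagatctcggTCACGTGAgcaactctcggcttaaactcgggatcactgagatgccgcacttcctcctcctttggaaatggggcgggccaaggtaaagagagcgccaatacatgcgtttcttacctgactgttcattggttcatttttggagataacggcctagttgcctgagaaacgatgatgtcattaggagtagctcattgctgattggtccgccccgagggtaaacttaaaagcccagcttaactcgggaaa
Glb1 (chr9:114400828-114401127, plus strand): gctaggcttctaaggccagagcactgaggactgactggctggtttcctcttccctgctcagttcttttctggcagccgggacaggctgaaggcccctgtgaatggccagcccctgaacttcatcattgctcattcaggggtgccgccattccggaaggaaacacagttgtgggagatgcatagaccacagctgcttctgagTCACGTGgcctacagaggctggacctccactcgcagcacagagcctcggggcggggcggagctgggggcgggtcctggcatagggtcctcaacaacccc
Mcoln1 (chr8:3500269-3500568, plus strand): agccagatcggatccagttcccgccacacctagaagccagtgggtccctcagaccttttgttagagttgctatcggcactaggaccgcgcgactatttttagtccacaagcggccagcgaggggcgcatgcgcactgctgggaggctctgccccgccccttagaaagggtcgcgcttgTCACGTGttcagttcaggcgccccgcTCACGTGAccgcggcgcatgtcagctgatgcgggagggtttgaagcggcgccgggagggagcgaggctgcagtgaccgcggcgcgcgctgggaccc

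With matches that overlap on opposite strands counted as 1 site, the 4 sites of Lamp1 begin within 62 bases before the start and the 2 of Mcoln1 within 72 bases, whereas the 2 of Gla reach back 228 bases and the 2 of Ctsd 245 bases. Glb1 has 1 site, 49 bases before the start. Of the 10 carriers, Ctsa, Ctsd, Lamp1, Atp6v0d1 and Atg7 fell, Gla, Glb1 and Gaa rose, and Mcoln1 and Atp6v1a did not pass. For 3 of them the start next to the word is not the gene's outermost one but lies inside it, by 27969 bases in Atg7, 901 in Ctsa and 443 in Atp6v1a. Their median log2 fold change was −0.081, with a range from −0.46 (Atg7) to 0.26 (Glb1). Among the other 25 genes with a promoter 15 fell (60%) and 6 rose (24%), with a median of −0.17. Over the 681 tested genes that carry the word the median was 0.031, and 280 rose (41.1%) and 214 fell (31.4%). Over all 9763 tested genes with a promoter the median was 0.00027, and 36.5% rose and 34.8% fell. The promoters at hand of Gpnmb and Tfeb do not hold TCACGTG, which says only that these letters are not in those windows.

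Among the hydrolases and their cofactors Ctsd, Grn, Psap, Ctsa and Ctsb fell without overlap, while the glycosidase genes Glb1 and Gla rose. Of 13 soluble lysosomal proteins 6 fell (46.2%), 5 rose (38.5%) and 2 did not pass, where 35.2% of all tested genes fell and 36.1% rose. Their median log2 fold change was 0.0054. Their summed level, in which the most abundant genes weigh most, was 6224 ± 189 CPM in siRNA and 7301 ± 130 CPM in control libraries (SD, n = 5 each). Ctsd (Entrez gene 13033, chromosome 7, 142375910 to 142387827), which encodes the aspartic protease cathepsin D, was at 1119, 1131, 1135, 1072 and 1018 CPM in siRNA libraries, against 1471, 1450.2, 1447, 1456 and 1494 CPM in control libraries. The groups were far apart, and Ctsd fell by 0.42 on the log2 scale (SE 0.025, edgeR adjusted p = 8.79e-19). Its exons share 34.4% of their bases with the overlapping gene Gm49369, so reads of that stretch could belong to either gene. Grn, the precursor of the lysosomal granulins, was at 592, 592, 595, 566 and 564 CPM in siRNA and 769, 751, 782, 785 and 740.4 CPM in control libraries, without overlap (change on the log2 scale −0.40, adjusted p = 8.77e-19). Psap, which encodes prosaposin, the source of the saposins that present sphingolipids to hydrolases, was at 1486, 1525, 1567, 1466 and 1395 CPM in siRNA and 1862, 1871, 1889, 1914 and 1894 CPM in control libraries, lowest in siRNA replicate 5, and fell by 0.34 on the log2 scale (SE 0.025, adjusted p = 2.85e-16). Ctsb (cathepsin B) fell by 0.16 and Ctsa, the protective protein that holds GLB1 and NEU1 in one complex, by 0.19. Both had fractional counts in all 10 libraries. Npc2, the soluble carrier that takes cholesterol from lysosomal contents, fell by 0.07 with overlapping groups (adjusted p = 0.0126, and 0.0817 without control replicate 4).

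Glb1 (beta-galactosidase) was at 67.9, 71.5, 76.6, 67.7 and 72.7 CPM in siRNA and 59.3, 57.9, 61.1, 62.4 and 56.7 CPM in control libraries, without overlap, and rose by 0.26 on the log2 scale (adjusted p = 1.95e-08). Gla (alpha-galactosidase A) rose by 0.22 and Ctsz, the carboxypeptidase cathepsin Z, by 0.16. Thus Glb1 rose while Ctsa, the gene of its complex partner, fell. The calls of Gaa, the glycogen-splitting acid alpha-glucosidase (log2 fold change 0.07, adjusted p = 0.0368), and Neu1, a sialidase (log2 fold change 0.10, adjusted p = 0.0229), were close to the threshold, and for both genes the libraries of the groups overlapped. Gaa did not pass with DESeq2 (0.0735), upper-quartile factors (0.107), a mean of at least 5 CPM (0.0598), or without control replicate 1 (0.085) or 5 (0.0653), or siRNA replicate 2 (0.0658) or 3 (0.147). Neu1 did not pass with DESeq2 (0.0576), upper-quartile factors (0.0557), or without control replicate 1 (0.0913), or siRNA replicate 2 (0.0865) or 4 (0.0509). Ctsl (cathepsin L) was at 897 ± 31.8 CPM in siRNA and 894 ± 35.2 CPM in control libraries (adjusted p = 0.864, 95% confidence interval of the log2 fold change −0.05 to 0.06). For Hexa, the alpha subunit of beta-hexosaminidase, that interval was −0.03 to 0.08 (adjusted p = 0.376).

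Lysosomal membrane proteins held the largest fall and the largest rise of all 43 genes. Gpnmb (Entrez gene 93695, chromosome 6, 49036518 to 49058182), a membrane glycoprotein of melanosomes and lysosomes known as a target of MITF and TFE3, was at 27.3, 29.7, 29.6, 28.3 and 27.5 CPM in siRNA libraries, against 51.7, 47.8, 51.1, 52.7 and 46.5 CPM in control libraries. The siRNA libraries were tightly grouped at 57.0% of the control mean, and Gpnmb fell by 0.81 on the log2 scale (SE 0.043, edgeR adjusted p = 7.47e-21), a change lower than that of all but 4.59% of tested genes. Of the 43 genes Gpnmb alone passed a test against a fold of 1.5 (glmTreat), which 8.56% of all tested genes passed. Macrophages also express Gpnmb, and Cd14 fell beside it by 0.49 on the log2 scale. Cd68, a further macrophage marker counted here among the further lysosomal membrane proteins, fell by 0.40. It was at 34.0 ± 4.17 CPM in siRNA and 44.7 ± 3.26 CPM in control libraries, without overlap. The other 5 macrophage markers on the list with a row were near 0 CPM, as given above. Of those 5 only Mpeg1 passed the filter. It was at 0.703 ± 0.286 CPM in siRNA and 0.523 ± 0.169 CPM in control libraries, with overlapping groups. Its log2 fold change of 0.42 did not pass (edgeR adjusted p = 0.208). The part of macrophages in the fall of Gpnmb was not tested. Npc1, which encodes the membrane transporter that moves cholesterol out of lysosomes, was at 148, 151, 150.4, 144 and 146 CPM in siRNA and 101, 104, 97.2, 101 and 104 CPM in control libraries. Every siRNA library was far above every control library, and Npc1 rose by 0.54 on the log2 scale (SE 0.028, edgeR adjusted p = 2.2e-21), a change higher than that of 93.2% of tested genes. Npc1 rose while Npc2, which hands it cholesterol, fell only slightly (−0.07). The groups of Npc2 overlapped, and its call was lost without control replicate 4. Lamp1 and Lamp2, the main structural glycoproteins of the lysosomal membrane, fell by 0.22 and 0.15, with Lamp1 at 1033 ± 24.6 CPM in siRNA and 1205 ± 16.7 CPM in control libraries. Mcoln1, the calcium channel TRPML1, was at 51.8 ± 1.15 CPM in siRNA and 50.8 ± 1.02 CPM in control libraries (log2 fold change 0.03, 95% confidence interval −0.04 to 0.10).

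**Figure D2:**
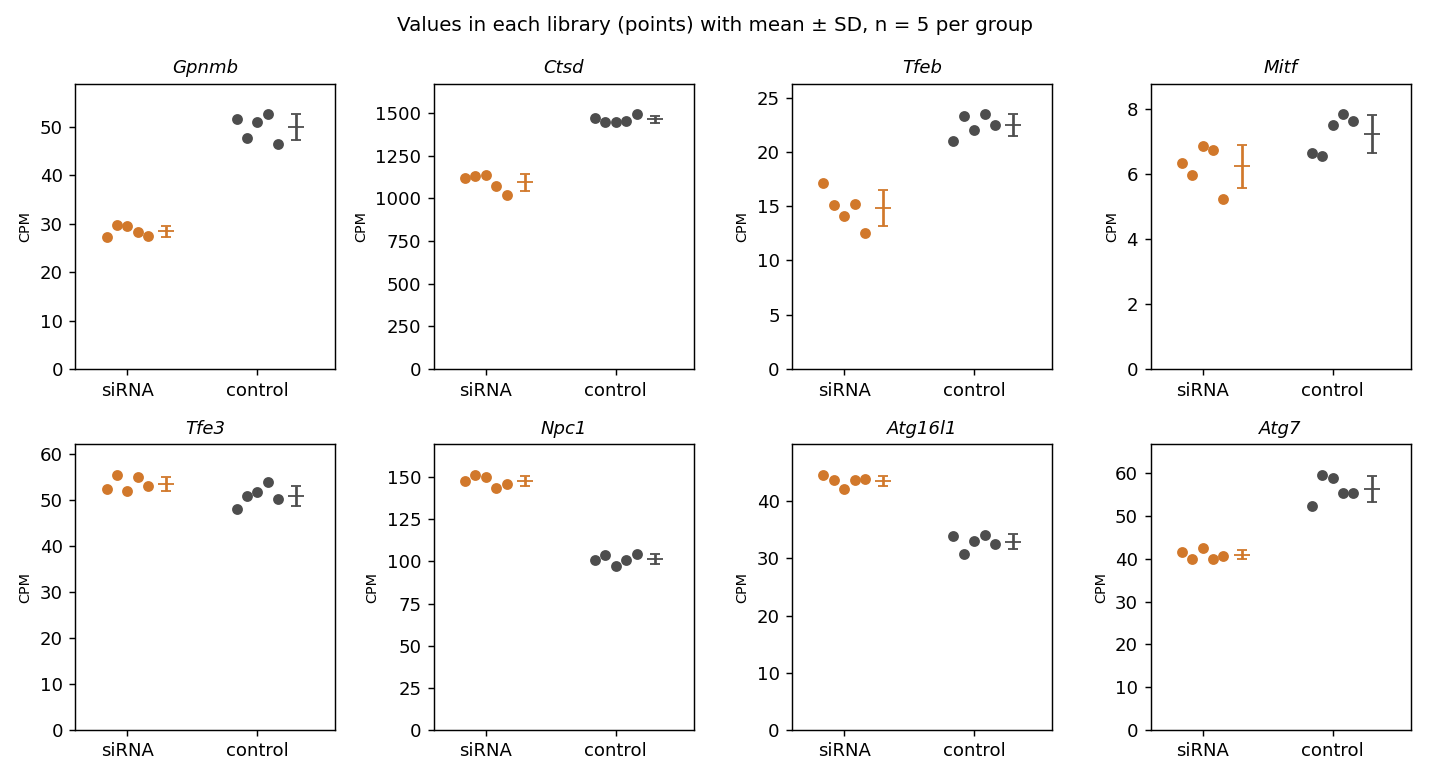
CPM in each of the 5 siRNA (left) and 5 control libraries (right) for 8 of the genes, as points with mean ± SD. Gpnmb, Ctsd, Tfeb and Atg7 are lower and Npc1 and Atg16l1 higher in every siRNA library than in any control library, and the groups of Mitf and Tfe3 overlap.

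Genes of the proton pump moved in both directions. Of 6, Atp6v1b2 (0.24), Atp6v1h (0.22) and the accessory gene Atp6ap1 (0.16) rose on the log2 scale, Atp6v0a1 (−0.44) and Atp6v0d1 (−0.20) fell, and Atp6v1a did not pass (0.03, 95% confidence interval −0.02 to 0.08). Atp6v0a1 (Entrez gene 11975, chromosome 11, 101009422 to 101063719), the a1 subunit of the membrane sector, was at 71.3, 69.6, 69.6, 66.7 and 64.7 CPM in siRNA and 93.1, 93.6, 90.0, 92.6 and 93.8 CPM in control libraries, without overlap. Atp6v1b2, a subunit of the catalytic head, was at 232, 235, 235, 231 and 242 CPM in siRNA and 199, 189, 201, 204 and 201 CPM in control libraries, also without overlap (adjusted p = 2.22e-11). The pump has a membrane sector (V0) that carries protons and a cytosolic sector (V1) that splits ATP. Together with the 12 further subunit genes on a second list, and split by sector after the values were seen, so with no test of the split, 4 of 8 V0 genes fell and 2 rose, while 1 of 8 V1 genes fell and 3 rose, where 35.2% of all tested genes fell and 36.1% rose. In V0 the a3 subunit gene Tcirg1 fell by 0.55 and the ring subunit gene Atp6v0c by 0.34, whereas Atp6v0e rose by 0.19, and the a2 subunit gene Atp6v0a2 did not pass (0.05 on the log2 scale, adjusted p = 0.0684). In V1 the stalk gene Atp6v1g1 rose by 0.34, and Atp6v1d fell by 0.19. Both accessory genes rose.

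**Figure D3:**
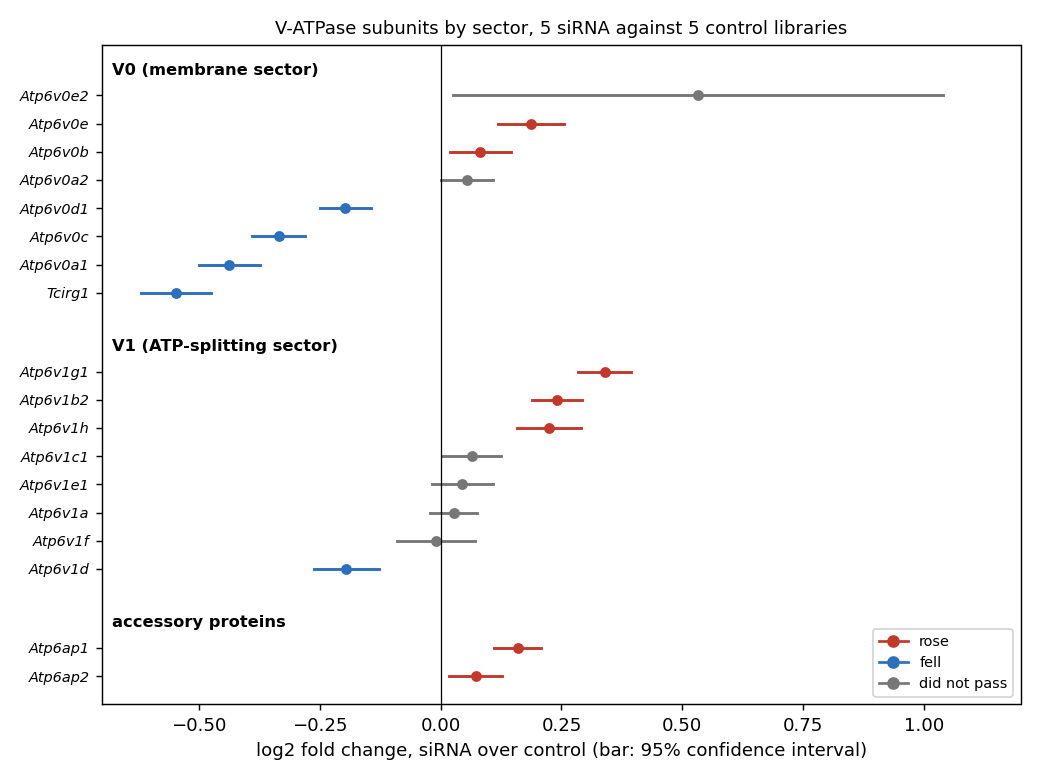
Log2 fold change, siRNA over control, of 18 V-ATPase genes with 95% confidence intervals, by sector; colours as in the plot of genes by role. The 4 largest falls are V0 genes, from −0.55 (Tcirg1) to −0.20 (Atp6v0d1). The V1 gene Atp6v1d, at −0.19, lies next to Atp6v0d1, and the intervals of these genes overlap. The rare Atp6v0e2, at 0.889 ± 0.237 CPM in siRNA and 0.613 ± 0.0895 CPM in control libraries, has the widest interval.

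At the start of autophagy, 2 of 4 genes of initiation and of the early membrane fell, 1 rose and 1 did not pass. Of all tested genes 35.2% fell and 36.1% rose. Wipi1, which binds phosphatidylinositol 3-phosphate on the forming membrane, was at 51.2, 53.0, 56.4, 50.4 and 56.3 CPM in siRNA and 73.3, 75.9, 69.2, 70.4 and 75.5 CPM in control libraries, without overlap (log2 fold change −0.45, SE 0.036, adjusted p = 1.39e-14). Its relative Wipi2, which recruits ATG16L1, was at 86.7 ± 1.22 CPM in siRNA and 89.3 ± 2.88 CPM in control libraries (adjusted p = 0.199, 95% confidence interval of the log2 fold change −0.10 to 0.02). Ulk1, the initiating kinase, fell by 0.17. Becn1, a subunit of the lipid kinase complex that makes phosphatidylinositol 3-phosphate, rose by 0.11, but 43.9% of its exon bases are shared with Cntd1 and its counts were fractional in all 10 libraries.

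Of 4 genes of the conjugation machinery 2 fell and 2 rose, where 35.2% of all tested genes fell and 36.1% rose. Atg7, the activating enzyme at the head of both conjugation cascades (Entrez gene 74244, chromosome 6, 114643127 to 114860604), was at 41.5, 40.0, 42.5, 40.0 and 40.7 CPM in siRNA and 52.4, 59.7, 58.9, 55.3 and 55.5 CPM in control libraries, and fell by 0.46 on the log2 scale (SE 0.039, edgeR adjusted p = 3.55e-14). Atg12, the ubiquitin-like protein that is joined to ATG5, fell by 0.29. Atg5 rose by 0.22, and Atg16l1 (Entrez gene 77040, chromosome 1, 87756007 to 87792428), which carries the ATG12-ATG5 conjugate to the membrane, was at 44.6, 43.7, 42.2, 43.7 and 43.9 CPM in siRNA and 34.0, 30.9, 33.1, 34.2 and 32.6 CPM in control libraries. The groups did not overlap for any of the 4 genes, nor for 57.0% of all tested genes. Atg16l1 had the second largest rise of the 43 (log2 fold change 0.40, SE 0.040, edgeR adjusted p = 4.09e-12).

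Of 3 cargo receptor genes 2 fell and 1 rose, where 35.2% of all tested genes fell and 36.1% rose. Sqstm1, which encodes p62, the receptor of ubiquitinated cargo, was at 716, 714, 715, 711 and 699 CPM in siRNA and 645, 644, 683, 679 and 634 CPM in control libraries, without overlap, and rose by 0.11 (adjusted p = 4.17e-05). The related receptor gene Nbr1 fell by 0.21 and Optn, a receptor in the clearance of mitochondria and bacteria, by 0.21.

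Per kilobase of merged exons, a scale on which genes can be compared, soluble and membrane proteins of the lysosome led and Mitf came last. Psap had 542 CPM per kb in siRNA and 687 in control libraries, Ctsd 466 CPM per kb in siRNA and 623 in control libraries and Lamp1 386 CPM per kb in siRNA and 451 in control libraries. In control libraries Grn and Ctsb (220.3 and 219 CPM per kb) did not differ beyond their spread, whereas in siRNA libraries Sqstm1 (212 CPM per kb) stood above both Ctsb (196) and Grn (168). Mitf had 1.01 CPM per kb in siRNA and 1.17 in control libraries, and Tfeb 2.61 CPM per kb in siRNA and 3.96 in control libraries. Merged exons hold every annotated exon, so genes with long alternative ends are placed too low on this scale.

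**Figure D4:**
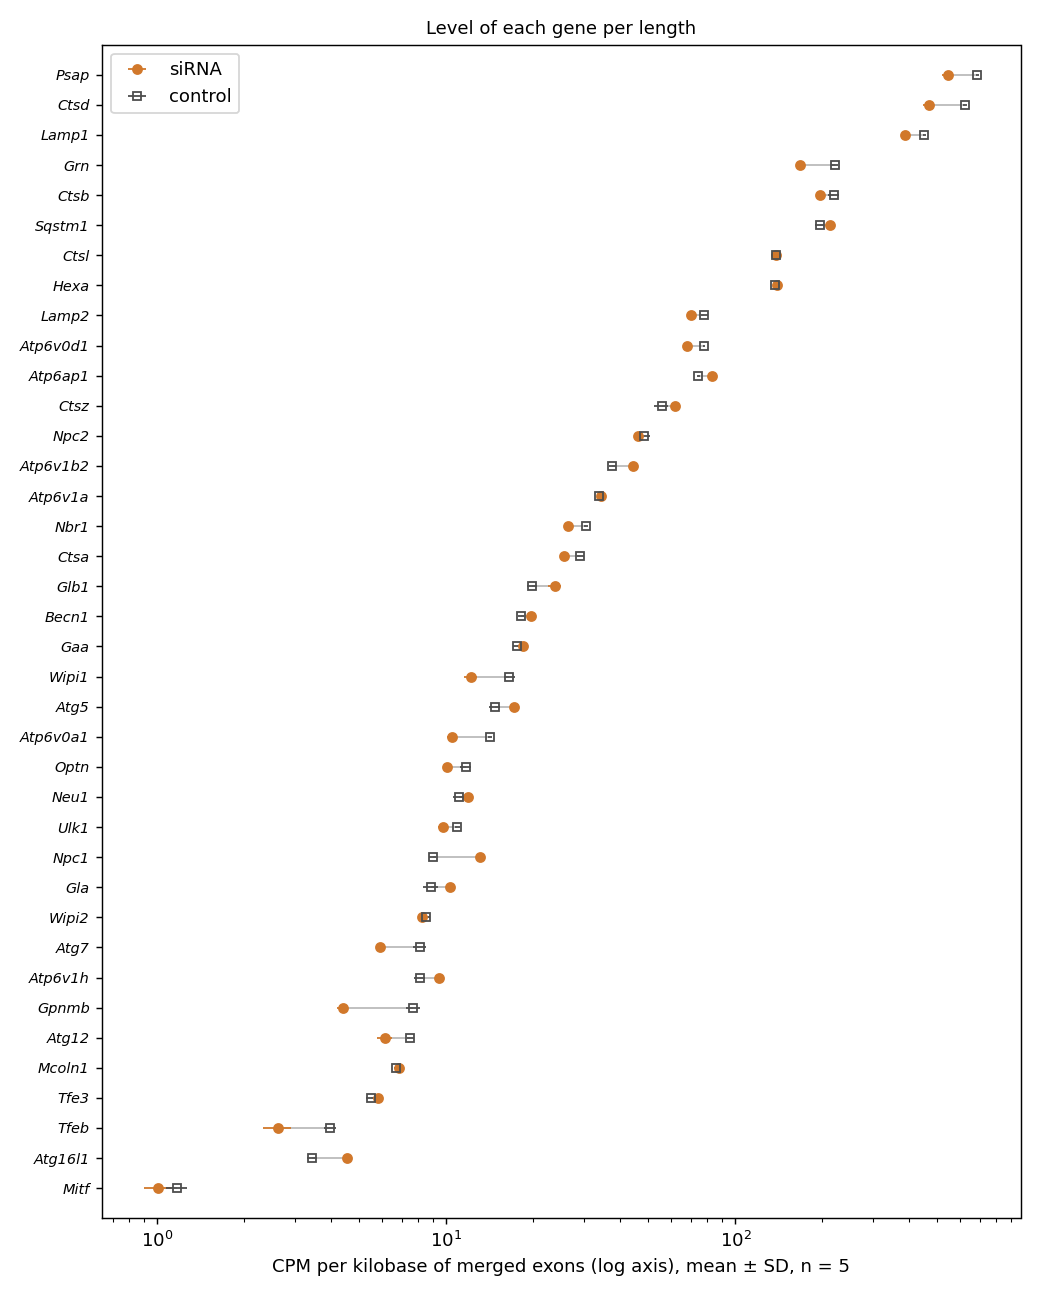
Level of each gene described in CPM per kilobase of merged exons on a log axis, mean ± SD over 5 siRNA (filled circles) and 5 control libraries (open squares), ordered by the control level. Levels span from 1.01 CPM per kb in siRNA and 1.17 in control libraries for Mitf to 542 CPM per kb in siRNA and 687 in control libraries for Psap, and the gap between the symbols of a gene is small beside the range over the genes.

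A second list of 135 further genes of the same pathways, in 9 groups, was examined next, with 131 over the filter. Of these 36 rose, 71 fell and 24 did not pass, with a median log2 fold change of −0.11, so that 27.5% rose and 54.2% fell, where 36.1% and 35.2% of all tested genes did. Of 35 further hydrolases and activators 21 fell and 10 rose. Man2b1, an alpha-mannosidase, fell by 0.56, Arsb, an arylsulfatase whose exons share 39.9% of their bases with other genes, by 0.59, and the GM2 activator gene Gm2a by 0.73. The extremes, named after their values were seen, were Ctsf, at 5.74 ± 0.531 CPM in siRNA and 13.4 ± 0.888 CPM in control libraries (−1.23), and Ctsc, the dipeptidyl peptidase that activates granule proteases, at 50.5 ± 4.27 CPM in siRNA and 24.8 ± 2.69 CPM in control libraries (1.03). Ctss, a cathepsin typical of macrophages, did not reach the filter, with 4 counts in all siRNA and 13 in all control libraries. Of 20 further membrane proteins 11 fell and 6 rose, with Laptm4a lower (−0.48), and the sialic acid exporter gene Slc17a5 (0.54) and the tetraspanin gene Cd63 (0.26) higher. The largest fall of the second list was that of a sorting receptor. Sort1, which encodes sortilin, was at 10.7, 11.4, 13.3, 12.0 and 12.4 CPM in siRNA and 37.3, 34.3, 31.1, 33.5 and 34.9 CPM in control libraries, and fell by 1.51 on the log2 scale (SE 0.057, edgeR adjusted p = 6.49e-26). Of the mannose 6-phosphate receptor genes Igf2r fell by 0.39, from 26.1 ± 0.724 CPM in control to 19.9 ± 0.974 CPM in siRNA libraries. The more abundant M6pr, named after its value was seen, rose by 0.18. It was at 223 ± 3.19 CPM in siRNA and 197 ± 4.59 CPM in control libraries, without overlap. Gnptab, an enzyme that makes the mannose 6-phosphate tag, fell by 0.35, within a group of 9 in which 4 fell and 3 rose. Of 11 tested genes that anchor mTORC1 to the lysosome or control MiT/TFE factors, 5 rose and 4 fell, with Lamtor5 (0.37) and Lamtor1 (0.13) up and Flcn, the folliculin gene, down (−0.20).

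Further autophagy genes were lower more often than higher, where 35.2% of all tested genes fell and 36.1% rose. Of 15 genes of initiation and membrane supply 10 fell (66.7%) and 2 rose (13.3%), and their median was −0.23. Uvrag and Pik3c3, whose products work in complexes with Beclin 1, fell by 0.73 and 0.39, and Atg9a, the scramblase that seeds the membrane, by 0.33. Exons of Atg9a share 32.6% and those of Uvrag 17.6% of their bases with other genes. Counts of Pik3c3 were fractional in all 10 libraries. Of 9 further receptor and mitophagy genes 8 fell (88.9%) and 1 rose (11.1%), with a median of −0.36. Pink1, the kinase that marks damaged mitochondria, was at 89.9, 90.1, 91.3, 94.6 and 89.6 CPM in siRNA and 133, 139, 129.9, 127 and 127 CPM in control libraries, without overlap (−0.53, adjusted p = 5.4e-20). Fundc1, a receptor on mitochondria, fell by 0.55 and Ncoa4, the receptor for ferritin, by 0.36, whereas Tollip, named after its value was seen, rose by 0.25. Of 7 further genes of conjugation and processing 3 fell (42.9%) and 2 rose (28.6%), shares not far from those of all tested genes. Among them were Atg3 (−0.27) and the protease genes Atg4a (−0.35) and Atg4d (0.28), the last with fractional counts in all 10 libraries. Of 13 genes of fusion with the lysosome 7 fell (53.8%) and 3 rose (23.1%), with Plekhm1 (−0.40), Tecpr1 (−0.20) and the small GTPase gene Rab7 (−0.13) lower. Of the 12 further V-ATPase genes 4 rose (33.3%), 3 fell (25%) and 5 did not pass.

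**Figure D5:**
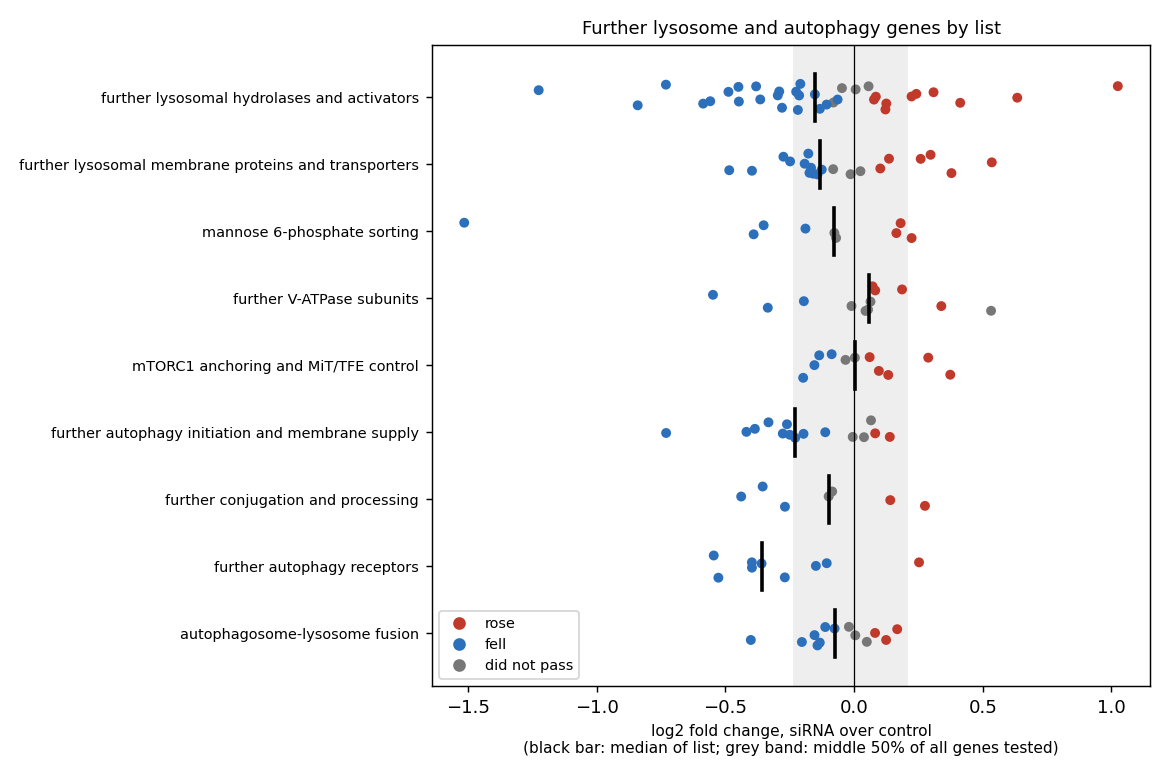
Log2 fold change, siRNA over control, of the 131 tested further genes by group, with the median of each group as a black bar and the middle 50% of all genes tested as a grey band. The medians run from −0.36 (further receptors) to 0.059 (further V-ATPase subunits), and Sort1, at −1.51, is the leftmost point.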

How the data were processed

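Poly(A) RNA of mouse primary LECs was sequenced, per the labels' protocols. The deposited table gives unnormalized estimated counts per gene, made by the authors before deposit, and 10.5% to 11.3% of a library's values are fractional. The submitters' processing notes name HISAT2 2.2.1, Bowtie2 2.4.5, RSEM 1.3.1 and GRCm38.p6. The step each tool served, the annotation, the strand option and any removal of genes were not given in the sources used here.

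Columns were matched to the 10 samples (5 siRNA, 5 control) by name. Counts were rounded and tested over all genes by the quasi-likelihood test of edgeR 4.0.16 (R 4.3.3) with TMM scaling. Genes were kept by filterByExpr at its minimum of 10 counts, the robust fit was on group, and the threshold was an adjusted p (Benjamini-Hochberg) of 0.05. The test was checked on simulated data in which, unlike here, only a small part of the genes changed. That check cannot judge the test where most genes change. CPM uses TMM-scaled library sizes, and member counts ran from 95 to 34662 per library. Fold changes are siRNA over control. Pairs of libraries of a group gave a chi-square of 1.50 to 3.47 per degree of freedom, above the sampling noise, so no pair was merged as a library deposited again. Exon lengths and overlaps come from GENCODE M21 (GRCm38), coordinates from RefSeq (16202 IDs matched), promoters from RefSeq. The last 30 bases of the promoter lay in a transcript of the gene's strand for 32 of 35 genes.

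The members and lists were chosen with earlier results of these data known. Some members enter the counts only and are not reported here. Values per library are given for reported members past the threshold with a fold of at least 1.5, for the MiT/TFE factors and for others of the 43 in which a role's largest change or a contrast between partners is shown; each reported role's largest and smallest change is named. Of each further list, up to 3 genes with the smallest adjusted p are named, others being said to be named after their values were seen or used as markers or subunits. Among the reported members, exons of Becn1, Ctsd, Ctsl, Ctsa, Sqstm1, Ctsb and Hexa share over 10% of their bases with another gene, so their levels are uncertain. Each result was recomputed by DESeq2 1.42.0 and by voom in limma 3.58.1, with RLE or upper-quartile scaling, without a filter or with only genes averaging 5 CPM or more, with a replicate block, by glmTreat against a fold of 1.5, and without each library.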

Additional observations from a re-analysis of the deposited data

Results flagged for a closer look

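In 3 of 86 groups of 5 libraries (43 genes in each group), 1 library stood apart from the other 4 by Dixon's test at 95%, and chance flags about 1 in 20 groups. Ctsa was at 130.2 CPM in control replicate 1, below 137.8 to 139.4 CPM in the other control libraries, and above every siRNA library. Sqstm1 was at 699 CPM in siRNA replicate 5, below 711 to 716 CPM in the other siRNA libraries, and above every control library. Optn was at 39.4 CPM in siRNA replicate 3, above 37.3 to 37.6 CPM in the other siRNA libraries, and below every control library.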

How the results depend on the processing

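Of the 37 genes called, 33 (12 higher, 21 lower) kept their direction and passed under every alternative other than the test against a fold of 1.5. The other 4 were Gaa, Neu1, Npc2 and Mitf, whose values stand in the report. By glmTreat against a fold of 1.5, 0 members rose and 1 fell, with the same counts at an unadjusted p of 0.05, 1 further gene rose and 5 fell, and 1041 of all genes were called. With each library left out, 12 to 15 members rose and 21 to 23 fell, 32 to 37 further genes rose and 68 to 71 fell, and 8437 to 8549 genes were called in all. Ctsl, which did not pass, changed sign with upper-quartile factors (−0.0108), with a mean of at least 5 CPM (−0.0027), and without control replicate 2 (−0.0057) or 5 (−0.0102) or siRNA replicate 2 (−0.0014) or 3 (−0.0115), against at most 0.0195 (without siRNA replicate 4). The cause was not tested. With the replicate number as a block 14 members rose and 23 fell and 8537 genes were called. Same-numbered libraries did not deviate together over all tested genes (correlations from −0.075 to 0.020). Sampling noise enters these correlations too, so they cannot decide whether the samples were paired. The median of all genes stayed within −0.0193 (DESeq2) and 0.0034 (mean of at least 5 CPM), and that of the members within −0.165 and −0.135. Mitf, at 95 to 142 counts per library, is the gene that depth limits most.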
